A study of Mus musculus with 22 samples.

Results

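The inguinal white adipose tissue (IWAT) of obese mice was compared between the pad that had carried a tumor and the opposite pad of the same animal. The 12 libraries, of 22 in the series, were 6 from tumor-associated IWAT and 6 from control IWAT of the same 6 mice, numbered 0, 1, 2, 3, 4 and 8. They were chosen by diet and side as the sample labels give them and paired by the mouse number, and 13786 of 23420 gene symbols passed a filter on low counts. All were wildtype C57Bl/6 females kept on a high-fat diet (HFD) for 16 weeks. Cells of E0771, a breast cancer line derived from the same mouse strain, had been injected in PBS and Matrigel into the left pad, and PBS and Matrigel without cells into the right pad. Both pads were collected 2 weeks later. According to the study's methods the inguinal lymph node was taken out, the tumor was cut out together with a thin layer of fat, the fat over the tumor was discarded, and the outermost part of the pad was left out of the RNA samples. Tumor-associated IWAT was thus dissected as the fat beside a tumor. Lean mice on chow with the same injections, 5 of each pad, were used only to ask where the obese change differed. Each sample is a whole piece of tissue, and 1 cell line gave every tumor.

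White fat is built of adipocytes that store triglyceride and release hormones such as leptin and adiponectin, held in a stroma of progenitors, fibroblasts, vessels and macrophages. In the female mouse the inguinal pad also contains the mammary gland, with its luminal and basal epithelium. In obesity macrophages gather in white fat, and adipocytes next to a carcinoma are known to lose lipid and adipocyte gene expression while the stroma takes on a fibroblast-like and inflamed state. Type I interferons act through a complex of transcription factors that includes IRF9 and binds the interferon-stimulated response element in the promoters of antiviral genes.

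The depth was 6099692 to 7768729 gene counts a library. Levels are CPM values, that is counts divided by library size with edgeR's TMM factors, and changes are log2 fold changes of tumor-associated minus control IWAT. A gene was called at an adjusted p under 0.05 in edgeR's quasi-likelihood test with the mouse as a block. On the first principal component of log2 CPM, with 56.9% of the variance, the control pads lay between -60.1 and -36.6. The tumor-associated pads were spread from -10.2 in mouse 1 over 18.8 in mouse 3, 18.9 in mouse 8, 46.5 in mouse 2 and 80.3 in mouse 0 to 128.9 in mouse 4. The SD of the log2 differences over all tested genes was 0.70 to 0.90 in mice 1, 2, 3 and 8, 1.24 in mouse 0 and 1.65 in mouse 4. Some control pads held genes of other tissues. The summed level of 14 B cell genes was 1352 and 1254 CPM in the control pads of mice 1 and 3 and 134 to 181 CPM in the other 4, and 22 T and NK cell genes summed to 437 and 463 CPM against 37.7 to 41.3 CPM. In the control pad of mouse 1, 16 skeletal muscle genes reached 3140 CPM, against 53.8 to 109.3 CPM in the other control pads. Among tumor-associated pads that of mouse 8 was highest, at 347.2 CPM. Counts are therefore also given without mice 1 and 3, and without mice 0 and 4.

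**Figure D1:**
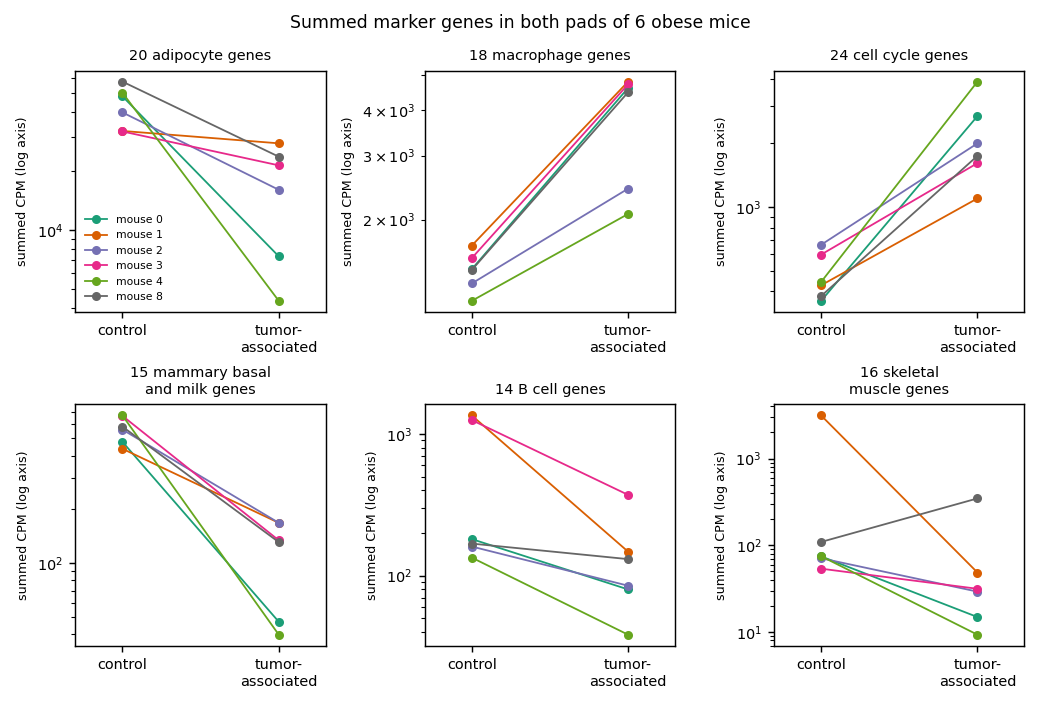
Summed CPM of 6 sets of marker genes (log axes) in the control and the tumor-associated pad, with a line for each of 6 obese mice. The adipocyte, macrophage, cell cycle and mammary basal sums did not overlap between the pads, whereas the B cell sum was highest in the control pads of mice 1 and 3 and the muscle sum in that of mouse 1. A sum weighs the abundant genes of its set most, such as Oxtr in the mammary set. In the B cell set Ebf1, which adipocytes and progenitors also express, averaged 125 CPM in control pads.

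In tumor-associated IWAT 2609 genes were called higher (18.9% of those tested) and 2260 lower (16.4%), with a median log2 fold change of 0.01 over all tested genes. The CPM of the pads did not overlap, with every tumor-associated pad above every control pad, in 1461 genes (10.6%), and the reverse was true of 1283 genes (9.31%). The counts given for each gene list below are to be read against these shares of all tested genes. The count of calls depended on the mice. It was 4869 in all, 1570 without mouse 0, 1815 without mouse 2, 2584 without mouse 8 and 2932 without mice 0 and 4, but 5857 without mice 1 and 3. In a fit to all 22 libraries, with the mouse as a block, 7680 genes were called. The calls lower in tumor-associated IWAT were the more sensitive: 411 were called in the fit without mouse 0 and 506 without mouse 2, against 1159 and 1309 higher. Of the 203 genes called here among the 250 described, 109 were called in each of the 6 fits that left out a mouse.

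**Figure D2:**
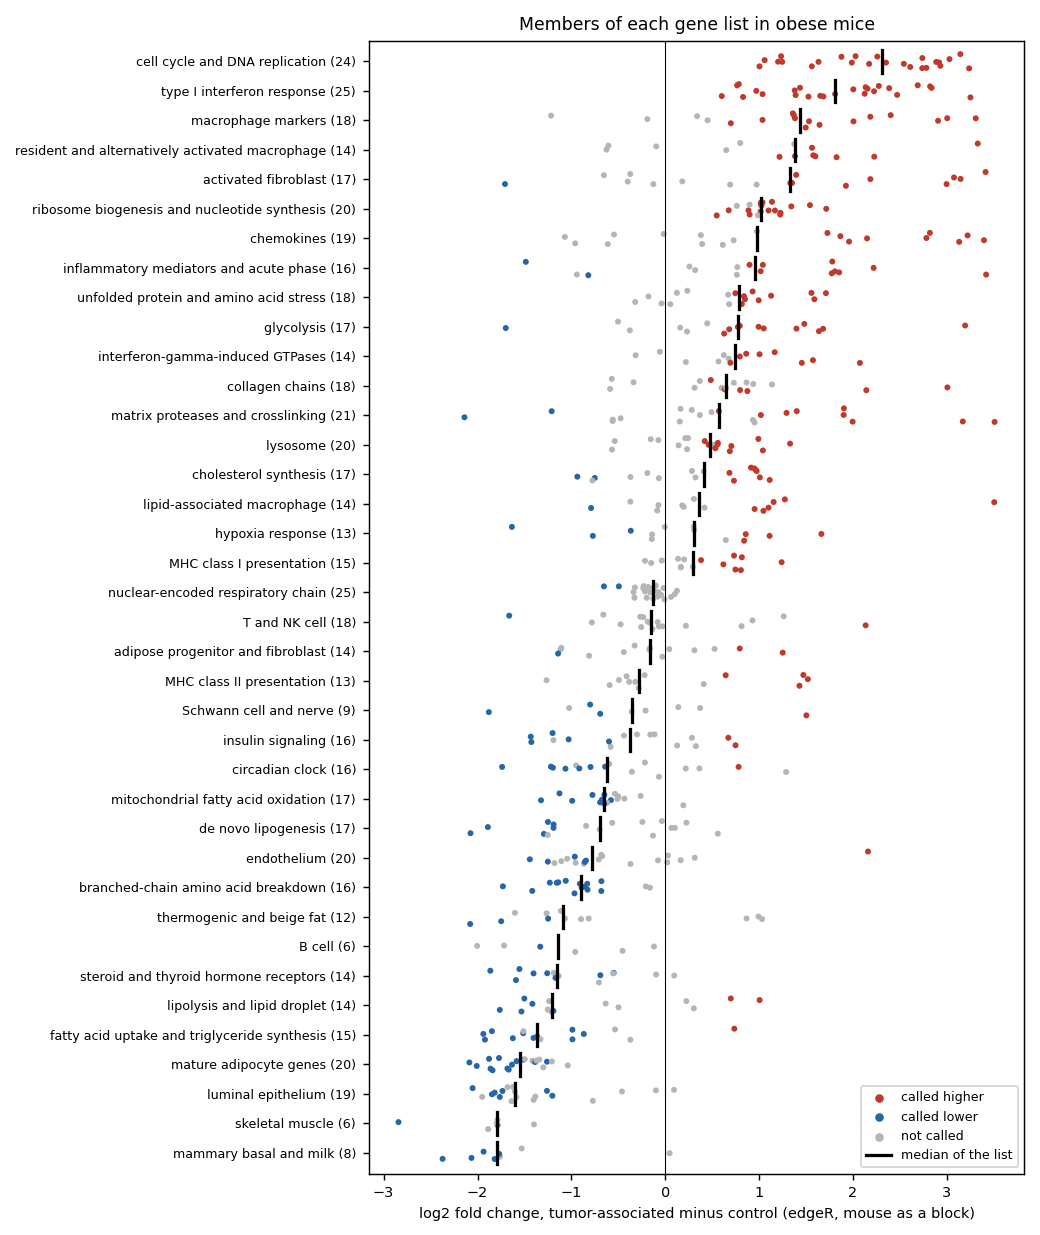
Log2 fold change of tumor-associated minus control IWAT for the tested members of each gene list (the number tested in brackets), with a bar at the list's median. Points are colored by edgeR's call: every tested member of the cell cycle and type I interferon lists was called higher, while the adipocyte, epithelial and hormone receptor lists had medians below 0.

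Interferon-induced genes were higher in tumor-associated IWAT in every obese mouse. All 25 tested genes of the type I interferon response were called higher by edgeR, and by DESeq2 as well, against 18.9% of all genes, 22 of them without overlap between the pads, with a median log2 fold change of 1.81. Their median log2 difference was 1.49 to 2.54 in each of the 6 mice, so that mice 1 and 3, with the smallest changes over all genes, showed 1.84 and 1.49. Between 23 and 25 members were called with each mouse left out, 25 without mice 1 and 3 and 24 without mice 0 and 4. Because the promoters of these genes are known for the response element named above, the 200 bases before the start of transcription are printed for 4 of them and for 2 interferon-induced GTPases described further on. They are RefSeq sequences on GRCm38.p6, 5′ to 3′ on the strand of the gene, and capitals mark GAAANNGAAA on either strand, overlapping copies included. The genes were picked in order of p among the described members, passing over those without this motif in the window. Each printed window thus holds the motif by selection.
Oas3, chr5:120777660-120777859, minus strand: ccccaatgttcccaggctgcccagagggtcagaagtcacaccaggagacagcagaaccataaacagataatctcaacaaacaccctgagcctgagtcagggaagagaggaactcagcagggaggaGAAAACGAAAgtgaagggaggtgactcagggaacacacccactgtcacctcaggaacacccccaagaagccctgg
Isg15, chr4:156200819-156201018, minus strand: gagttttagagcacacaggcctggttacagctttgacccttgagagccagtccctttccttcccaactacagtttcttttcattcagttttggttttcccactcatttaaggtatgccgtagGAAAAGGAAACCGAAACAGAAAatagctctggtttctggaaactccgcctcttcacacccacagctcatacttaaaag
Oas1g, chr5:120887614-120887813, minus strand: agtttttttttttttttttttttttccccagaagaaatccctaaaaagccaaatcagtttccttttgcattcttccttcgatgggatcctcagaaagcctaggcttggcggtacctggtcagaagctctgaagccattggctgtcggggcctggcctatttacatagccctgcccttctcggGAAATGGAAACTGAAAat
Ifit1, chr19:34640689-34640888, plus strand: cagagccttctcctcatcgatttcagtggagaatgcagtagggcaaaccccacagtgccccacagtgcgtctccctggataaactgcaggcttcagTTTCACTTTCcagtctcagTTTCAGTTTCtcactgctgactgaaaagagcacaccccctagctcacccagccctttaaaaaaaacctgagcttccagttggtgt
Gm12250, chr11:58183643-58183842, plus strand: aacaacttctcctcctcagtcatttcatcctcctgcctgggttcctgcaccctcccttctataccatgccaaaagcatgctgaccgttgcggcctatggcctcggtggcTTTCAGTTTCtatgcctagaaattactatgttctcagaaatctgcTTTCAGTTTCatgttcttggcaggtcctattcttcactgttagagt
Irgm1, chr11:48871421-48871620, minus strand: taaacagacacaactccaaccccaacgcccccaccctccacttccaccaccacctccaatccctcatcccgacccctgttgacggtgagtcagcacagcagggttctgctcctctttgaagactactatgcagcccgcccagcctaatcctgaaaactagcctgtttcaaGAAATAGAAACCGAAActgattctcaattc

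Isg15 held 3 copies, its nearest beginning 66 bases before the start, and Oas1g held 2, the nearest 12 bases before the start. In the window from 250 bases before to 50 bases after the start, 11 of the 19 interferon response genes matched to a promoter held the motif (57.9%). It was held by 3.90% of the 10925 tested genes with a promoter and by 3.44% of all 32851 promoters. A match is a description of the letters only.

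Oas3 codes for an oligoadenylate synthetase that senses double-stranded RNA. It ran from 4.96 to 14.4 CPM (median 7.22) in control pads and from 51.1 to 113.5 CPM (median 67.7) in tumor-associated pads. The tumor-associated pad was the higher one in 6 of 6 mice, the groups were far apart, and mouse 2 had the highest control pad. Its log2 fold change was 3.25 (edgeR adjusted p = 0.000921, standard error 0.27). Isg15, a ubiquitin-like modifier, was between 4.09 and 11.8 CPM (median 4.804) in control IWAT and between 27.0 and 61.4 CPM (median 42.1) in tumor-associated IWAT, a log2 fold change of 2.82 (edgeR adjusted p = 0.000921, standard error 0.24). Irf7 codes for the transcription factor that amplifies interferon production. Its control pads lay between 28.7 and 49.2 CPM (median 32.5) and its tumor-associated pads between 130.2 and 169 CPM (median 157), with little spread in either group. This was a log2 rise of 2.13 (edgeR adjusted p = 0.00039, standard error 0.12). Oas1g, Oasl1, Ifi44, Mx1 and Ifit1 rose by 2.12 to 2.84 on the log2 scale. The signaling component Irf9 rose by 0.60 (edgeR adjusted p = 0.0049). Oas1g belongs to a cluster of near-identical copies, so its share of reads is uncertain.

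Of 14 GTPases and related genes induced by interferon-gamma, 8 were called higher, 6 without overlap and 5 without mouse 0, and the median log2 fold change was 0.74. Gm12250 rose by 2.07 (edgeR adjusted p = 0.00189, standard error 0.23) and Irgm1, which acts on membranes around intracellular bacteria, by 1.57 (edgeR adjusted p = 0.00334, standard error 0.21). GENCODE types its Gm12250 record, which starts at 58187739, as a processed pseudogene. The RefSeq window printed above ends at 58183842, so the annotations place the start of this gene differently. They also differ for Irgm1, on the minus strand. Its printed window, 48871421 to 48871620, lies inside the GENCODE record, which reaches to 48871683. The response element was found in 10 of the 11 genes of this list with a promoter (90.9%). Gbp4, which overlaps Gbp8 and Gbp9, had a log2 fold change of -0.32 and was not called. Antigen presentation was divided. Tap1, the peptide transporter, rose by 1.24 (edgeR adjusted p up to 0.0657 without mouse 0 or 2) and Psmb9, a proteasome subunit on the other strand of the same locus, by 0.81 (up to 0.116 without mouse 0, 2, 3 or 8). In all 7 of 15 MHC class I genes were called higher, 2 without mouse 0 or mouse 2 and 3 without mouse 3, without mouse 8 or without mice 0 and 4. Among the 7, Calr and Canx, general chaperones of the endoplasmic reticulum, had the smallest p and rose by 0.75 and 0.62. Calr is counted again among the chaperones below. The class I heavy chain H2-K1 and its partner B2m had log2 fold changes of -0.04 and -0.15. For MHC class II, 4 of 13 genes were called higher, among them Ctss at 1.43 and Ifi30 at 1.52, enzymes that process antigens in the lysosome. The class II chain H2-Aa stood at -0.38 and Cd74 at -0.41, neither called. B cells also carry class II. The 14 B cell genes, none at 0 in all libraries, summed to 134 to 1352 CPM in control pads, with mice 1 and 3 highest. In tumor-associated pads they summed to 38.2 to 371.5 CPM. Ebf1, a member that adipocytes and progenitors also express, averaged 125 CPM in control and 56.7 CPM in tumor-associated pads. Low sums are therefore not a measure of B cells alone. The median difference of the 6 tested members ran from -3.83 in mouse 1 to 0.85 in mouse 8. The median difference of the class II list was -0.91 in mouse 1, 0.03 in mouse 3 and -0.39 to 0.87 in the other 4 mice. The part of the B cell genes in these values was not tested.

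The median of the macrophage markers was also higher beside the tumor in each mouse, at 0.91 to 1.79. Of 18 macrophage markers 14 were called higher, 11 without overlap, with a median log2 fold change of 1.44, and 13 or 14 were called with each mouse left out. Their summed level was 1196 to 1696 CPM in control and 2073 to 4789 CPM in tumor-associated IWAT, and none of the 18 was at 0 in all libraries. In bulk tissue, more cells of a type and more RNA per cell cannot be told apart, nor can fewer cells and less RNA. Fcgr1, the high-affinity receptor for IgG, was 6.40 to 11.2 CPM (median 8.21) in control pads and 58.3 to 111.3 CPM (median 87.0) in tumor-associated pads. All 6 tumor-associated pads stood well above the highest control pad. This was a log2 rise of 3.31 (edgeR adjusted p = 0.00039, standard error 0.20). Itgam, the integrin chain CD11b, was 50.6 to 76.0 CPM (median 65.0) against 163 to 375 CPM (median 348.5), and Emr1, the macrophage antigen F4/80, 73.8 to 119 CPM (median 102.8) against 158.9 to 424 CPM (median 328). Neither gene overlapped between the pads, and in both the tumor-associated pads of mice 2 and 4 were the lowest. Their log2 fold changes were 2.18 and 1.496 (edgeR adjusted p = 0.00039 and 0.00414).

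The scavenger receptor Msr1 rose by 2.402, the complement gene C1qa by 1.64, Ccr2, which brings monocytes into tissue, by 2.01 and Fcgr4 by 2.91. Mertk, a receptor for dying cells, and Marco stood at -0.19 and -1.22 and were not called. Of 14 resident and alternatively activated macrophage genes 8 were called higher, with a median difference of -0.11 in mouse 4 and 1.11 to 1.89 in the other mice. Chi3l3, a chitinase-like secreted protein, was 0.64 to 5.77 CPM (median 1.11) in control and 5.89 to 23.8 CPM (median 14.3) in tumor-associated IWAT, with 1 control pad, that of mouse 3, close to the lowest tumor-associated pad. Its log2 fold change was 3.33 (edgeR adjusted p = 0.00669, standard error 0.56). The mannose receptor Mrc1 rose by 1.58, Lyve1, which lymphatic vessels also express, by 1.82 and Vsig4 by 2.23, while Arg1 at 1.37 and Retnla at -0.63 were not called. Among 14 genes of lipid-associated macrophages 6 were called higher and 1 lower, and the median difference was -0.53 in mouse 4 and 0.09 to 1.15 in the others. Spp1, osteopontin, ranged from 7.77 to 46.7 CPM (median 12.6) in control and from 40.7 to 396 CPM (median 186) in tumor-associated IWAT. Its lowest tumor-associated pad, of mouse 1, was below its highest control pad, of mouse 2, although each mouse had the higher value beside the tumor. Spp1 rose by 3.50 (edgeR adjusted p = 0.00315, standard error 0.46), Tyrobp by 1.27 and Trem2 by 1.15, the last with an edgeR adjusted p of up to 0.0911 when mouse 0, 2, 3 or 8 was left out. Apoe fell by 0.79 (edgeR adjusted p = 0.0254, up to 0.0852 without mouse 0, 2 or 8), and Gpnmb stood at 0.18 with the sign set by the mice (-0.11 without mouse 3).

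Of 24 chemokine genes 19 passed the filter and 9 were called higher, 6 without overlap. Ccl2, Ccl7, Ccl8 and Ccl12, which draw monocytes and lie close together on chromosome 11, led the list. Ccl2 was 5.69 to 25.3 CPM (median 12.45) in control and 71.1 to 173 CPM (median 115.5) in tumor-associated pads, Ccl7 4.34 to 14.6 CPM (median 7.77) and 47.9 to 122 CPM (median 66.3). In both genes mouse 8 had the highest value of either pad. The fitted log2 fold changes were 3.22 for Ccl2, 3.13 for Ccl7, 2.82 for Ccl8 and 3.40 for Ccl12, with standard errors of 0.15 to 0.44 (edgeR adjusted p = 0.00031 to 0.00296). Ccl12 was low, 0.29 to 3.89 CPM (median 2.10) in control and 12.7 to 32.6 CPM (median 17.9) in tumor-associated IWAT. Cxcl10, an interferon-induced attractant of T cells, was 1.99 to 7.63 CPM (median 3.40) against 11.5 to 69.0 CPM (median 22.8), with the top value in mouse 4, and rose by 2.78 (edgeR adjusted p = 0.00422, standard error 0.41). Ccl6, Ccl9 and Ccl4 rose by 2.15, 1.73 and 1.87. The stromal chemokine Cxcl12 stood at -0.96 and Cx3cl1 at -1.07, not called with all 6 mice. A search for GGGANNNNCC, a form of the NF-kappaB motif, on both strands found it in 5 of 13 chemokine genes with a promoter (38.5%), against 30.2% of all tested genes, and in 20.7% of all promoters.

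Among 22 inflammatory and acute phase genes 16 passed the filter, and 9 were called higher and 2 lower, against 18.9% and 16.4% of all tested genes. Il1b, interleukin-1 beta, had few counts, 0.31 to 2.42 CPM (median 0.66) in control and 4.05 to 25.5 CPM (median 9.71) in tumor-associated pads. Even so the groups were apart, with mouse 8 highest and mouse 1 lowest beside the tumor. Its log2 fold change was 3.42 (edgeR adjusted p = 0.00303, standard error 0.45). The antagonist of the same receptor, Il1rn, rose by 1.77, the anti-inflammatory cytokine Il10 by 2.22, and Csf1, the growth factor of macrophages, by 1.04. Saa3, an acute phase protein of fat, rose by 1.78 (edgeR adjusted p = 0.0295, up to 0.0947 without mouse 0, 2 or 3), and Ptgs2, the enzyme COX-2, and Osm, oncostatin M, by 1.81 and 1.85. Orm1, another acute phase gene, fell by 1.49 and Nos2, the inducible nitric oxide synthase, by 0.82. Without mouse 0, 2 or 8 these 4 were not called (edgeR adjusted p up to 0.0782, 0.0899, 0.096 and 0.118), Ptgs2 also without mouse 3 and Nos2 also without mouse 4. Tnf at 0.76 and the haptoglobin gene Hp at 0.77 were not called. The list held 5 calls of a rise without mouse 0 or mouse 2.

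**Figure D3:**
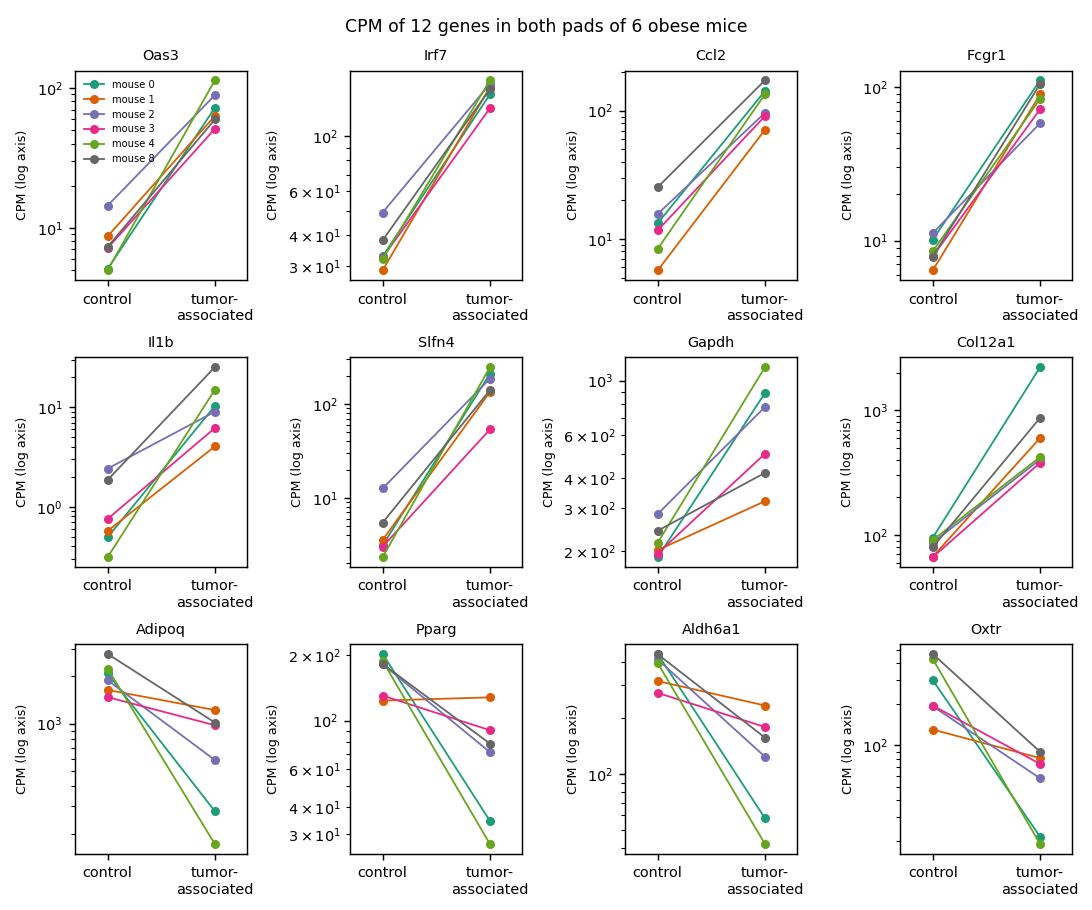
CPM of 12 genes (log axes) in the control and the tumor-associated pad, with a line for each of 6 obese mice. The interferon, chemokine and macrophage genes of the upper rows rose in each mouse, while the 4 genes of the lowest row fell most in mice 4 and 0 and changed least in mouse 1.

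Adipocyte genes were lower beside the tumor, by very different amounts from mouse to mouse. Of 20 mature adipocyte genes 13 were called lower, against 16.4% of all tested genes, 11 without overlap, and the median log2 fold change was -1.55, with every member between -2.09 and -1.04. The median log2 difference was -3.54 in mouse 4, -2.77 in mouse 0, -1.33 in mouse 8, -1.32 in mouse 2, -0.52 in mouse 3 and -0.16 in mouse 1. The calls depended on single mice: 2 of 20 were called without mouse 0, 2 or 8, 13 without mouse 4, all 20 without mouse 1 or without mice 1 and 3, and 9 without mice 0 and 4. DESeq2 called all 20. The 20 genes summed to 31900 to 57380 CPM in control and 4335 to 27730 CPM in tumor-associated IWAT, and none of them was at 0 in all libraries.

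Adipoq, the adipokine adiponectin, was 1476 to 2778 CPM (median 1990) in control pads and 171.3 to 1220 CPM (median 782) in tumor-associated pads. No pads overlapped, and the values beside the tumor fell into a low pair, mice 4 and 0, and 4 mice at 587 CPM or more. It fell by 1.77 on the log2 scale (edgeR adjusted p = 0.0278, up to 0.0875 without mouse 0, 2 or 8, standard error 0.47). Lep, leptin, the hormone that reports fat mass to the brain, was 2556 to 5588 CPM (median 4128) against 357 to 1877 CPM (median 1619), and fell by 1.86 (edgeR adjusted p = 0.0298, standard error 0.51). Slc2a4, the insulin-responsive glucose carrier GLUT4, was 57.2 to 101.3 CPM (median 89.0) against 5.62 to 49.4 CPM (median 31.6), a fall of 1.84 (edgeR adjusted p = 0.0292, standard error 0.50). Without mouse 0, 2 or 8 neither was called (up to 0.0852 for Lep and 0.091 for Slc2a4). Pparg, the master regulator of fat cell formation, overlapped between the pads: it was 123.6 to 203 CPM (median 182) in control and 27.0 to 127.9 CPM (median 74.9) in tumor-associated IWAT, and mouse 1 had slightly more beside the tumor. Pparg fell by 1.39 (edgeR adjusted p = 0.0324, up to 0.096 without mouse 0, 2 or 8, standard error 0.39). Retn, resistin, and Acvr1c, the activin receptor ALK7, fell by 2.09 and 2.01 and kept their calls with each mouse left out. Plin1, Fabp4 and Cfd, at -1.42, -1.34 and -1.30, did not pass (edgeR adjusted p = 0.0533, 0.0531 and 0.0693).

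Genes of triglyceride storage went the same way. Of 15 genes of fatty acid uptake and triglyceride synthesis 10 were called lower and 1 higher (median -1.36), and 1 call of a fall was left without mouse 0 or mouse 2 and 3 without mouse 8. Dgat2, which adds the last acyl chain to triglyceride, was 521 to 1404 CPM (median 866) in control and 87.8 to 515 CPM (median 327) in tumor-associated pads, a fall of 1.92 (edgeR adjusted p = 0.0244, up to 0.078 without mouse 0, 2 or 8, standard error 0.49). The pads barely separated, with mouse 3 at 515 CPM beside the tumor and mouse 1 at 521 CPM in control. Acsl1, Lpin1 and Pck1, enzymes on the way from fatty acids and glycerol to triglyceride, fell by 1.62, 1.51 and 1.94 and depended on the same 3 mice (edgeR adjusted p up to 0.106). Gyk, glycerol kinase (Gk in the annotation), was the exception and rose by 0.74 (edgeR adjusted p = 0.00334, standard error 0.10), higher in 6 of 6 mice. Of 14 lipolysis and lipid droplet genes 5 were called lower and 2 higher, with 9 lower without mouse 1, 3 without mouse 3, 1 without mouse 8 and 0 without mouse 0 or 2. The hormone-sensitive lipase gene Lipe fell by 1.51, the cAMP phosphodiesterase Pde3b by 1.53 and the kinase subunit Prkar2b by 1.76. Each was without a call when mouse 0 or 2 was left out, Lipe and Prkar2b also without mouse 8 (edgeR adjusted p up to 0.117, 0.0638 and 0.073). Hilpda, an inhibitor of lipolysis induced by hypoxia, rose by 1.00 and the droplet protein Plin2 by 0.70 (up to 0.0791 without mouse 0, 2, 3 or 8).

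De novo lipogenesis was split. Of 17 genes 6 were called lower by edgeR and 9 by DESeq2, with 0 in edgeR without mouse 0, 2 or 8, 2 without mice 0 and 4 and 11 without mice 1 and 3. Pnpla3, a lipid droplet acyltransferase, Thrsp and Acacb, an acetyl-CoA carboxylase, fell by 2.08, 1.89 and 1.29 (edgeR adjusted p up to 0.0701, 0.0842 and 0.0979 without mouse 0, 2 or 8), whereas the core enzymes of fatty acid synthesis showed no call: Acly stood at 0.10, Acaca at -0.24, Fasn at -0.70 and Scd1 at -0.84. Elovl6, an elongase, had a log2 fold change of 0.56. In the insulin pathway 5 of 16 genes were called lower and 2 higher, against 16.4% and 18.9% of all tested genes. Lower calls numbered 3 without mouse 8, 1 without mouse 2 and 0 without mouse 0. Foxo1, which insulin shuts out of the nucleus, fell by 1.43 (edgeR adjusted p = 0.0157, 0.0572 without mouse 0) and Akt2, the AKT form that moves GLUT4, by 0.60 (edgeR adjusted p = 0.0166, up to 0.0611 without mouse 0 or 2), but Akt1 rose by 0.67 (edgeR adjusted p = 0.00364) and the phosphatase gene Ptpn1 by 0.75 (edgeR adjusted p = 0.00394). Both rises were seen in 6 of 6 mice and kept their calls with each mouse left out. The receptor Insr and Irs1, at -0.44 and -1.19, did not pass. Of 12 tested beige fat genes 3 were called lower, against 16.4% of all tested genes. The count was 5 without mouse 1, 1 without mouse 8 and 0 without mouse 0 or 2. Ppargc1a, the coactivator of mitochondrial genes, fell by 1.75 (edgeR adjusted p = 0.0229, up to 0.072 without mouse 0 or 2), and Ucp1 was too low to be tested.

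Among mitochondrial genes, those of amino acid breakdown were called most often. Of 16 genes for the breakdown of branched-chain amino acids 14 were called lower, 13 without overlap, with a median of -0.90, and the median difference was negative in each mouse, from -0.29 in mouse 1 to -1.55 in mouse 0. With a mouse left out 8 to 14 were called, 8 without mouse 0 or mouse 2, and 12 without mice 0 and 4. Aldh6a1, the last enzyme of valine breakdown, was 274 to 443.5 CPM (median 405) in control and 41.9 to 234 CPM (median 140.3) in tumor-associated IWAT. All tumor-associated pads were below the lowest control pad, mouse 1 the nearest to it. The gene fell by 1.73 (edgeR adjusted p = 0.021, up to 0.0655 without mouse 0, 2 or 8, standard error 0.42). Pccb, a subunit of propionyl-CoA carboxylase, was 78.2 to 132 CPM (median 112) against 14.1 to 70.8 CPM (median 46.1) and fell by 1.42 (edgeR adjusted p = 0.0219, up to 0.0743 without the same mice, standard error 0.34). Hibch and Bckdha fell by 1.23 and 0.97 and kept their calls with each mouse left out. The first enzyme of the pathway, Bcat2, at -0.16, and the shared dehydrogenase subunit Dld, at -0.21, were the 2 tested members without a call.

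Of 17 genes of fatty acid oxidation 10 were called lower (median -0.65), 15 without mouse 1, 2 without mouse 8 or without mice 0 and 4, and 0 without mouse 0 or mouse 2. Acadm, the medium-chain dehydrogenase, was 302 to 488 CPM (median 393) in control and 75.4 to 290 CPM (median 173) in tumor-associated pads, again without overlap, and fell by 1.32 (edgeR adjusted p = 0.0271, up to 0.0849 without mouse 0, 2 or 8, standard error 0.35). Hadh and Echs1, which act later in each round of the cycle, fell by 0.99 and 0.78 (edgeR adjusted p up to 0.0591 and 0.0563 without mouse 0 or 2), while Cpt1a, the gate for entry of fatty acids, stood at 0.19. For 25 nuclear-encoded subunits of the respiratory chain the median was -0.13 and 2 were called lower, Sdha at -0.65 and Ndufs3 at -0.49, against a background of 16.4%. These counts were 5 without mouse 1, 1 without mouse 8 and 0 without mouse 0 or 2 (edgeR adjusted p up to 0.0684 and 0.0798). The per-mouse medians of this list lay between -0.30 and 0.13.

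**Figure D4:**
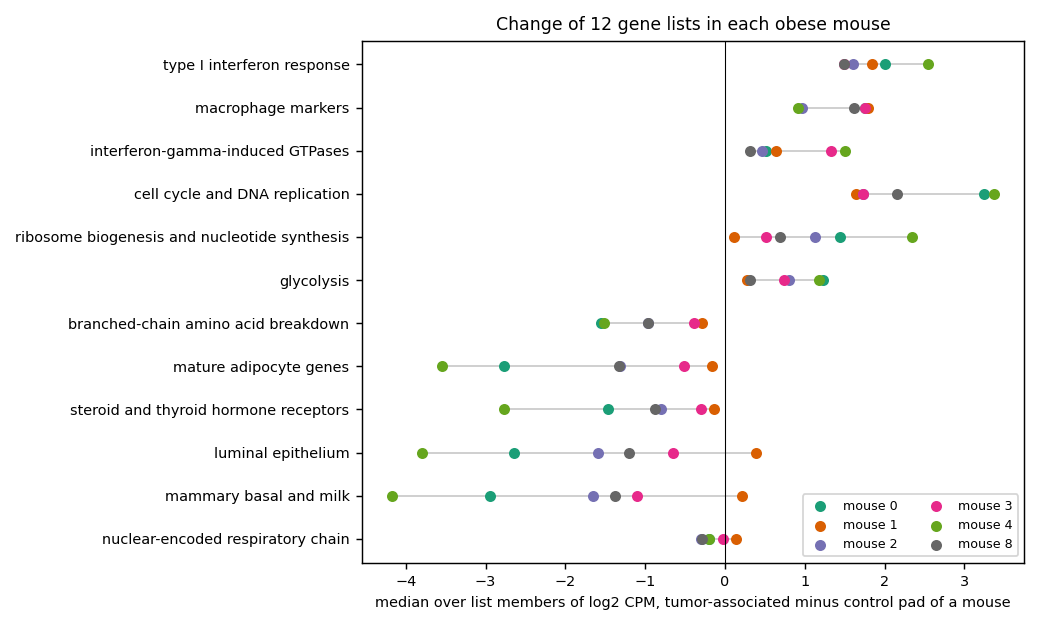
Median over the members of 12 gene lists of the log2 CPM difference between both pads of a mouse, with a point for each of 6 obese mice. The interferon list lay between 1.49 and 2.54 in all mice, whereas the adipocyte list ran from -3.54 in mouse 4 to -0.16 in mouse 1 and the luminal list from -3.80 to 0.39.

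Glycolysis genes were higher beside the tumor. Of 17 glycolysis genes 11 were called higher and 1 lower (median 0.77), and 9 to 12 were called higher with a mouse left out. Gapdh was 189 to 284 CPM (median 209.4) in control and 320.9 to 1136 CPM (median 641) in tumor-associated IWAT. Each tumor-associated pad was above all control pads, with mouse 4 highest and mouse 1 lowest. It rose by 1.48 (edgeR adjusted p = 0.00779, standard error 0.26). Slc16a3, the lactate exporter MCT4, was 2.94 to 19.2 CPM (median 5.99) against 12.03 to 153 CPM (median 79.5), and its pads overlapped only because the control pad of mouse 2 exceeded the tumor-associated pad of mouse 1. Its rise was 3.19 (edgeR adjusted p = 0.00774, standard error 0.56). Hk3, a hexokinase of myeloid cells, rose by 1.64, Pkm by 1.05, Pgk1 by 1.40, Ldha by 0.79 and the basal glucose carrier Slc2a1 by 1.68 (edgeR adjusted p up to 0.0568 without mouse 0 or 2). Pfkfb3, an activator of phosphofructokinase, fell by 1.70 (edgeR adjusted p = 0.0118). Eno1 was too low in these counts to be tested, and whether its reads were left unassigned could not be checked. Of 13 hypoxia genes 4 were called higher and 3 lower, against 18.9% and 16.4% of all tested genes. Left were 2 higher without mouse 0, 2 or 3 and 1 lower without mouse 0 or 2. Hif1a, the hypoxia-inducible factor, rose by 0.86 and the collagen hydroxylase P4ha1 by 1.11. Bnip3, a mitophagy receptor, fell by 1.63 (edgeR adjusted p up to 0.0591 without mouse 0 or 2) and Vegfa, the vascular growth factor, by 0.77.

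Chaperones of the endoplasmic reticulum and enzymes of amino acid supply rose. Of 18 such genes 10 were called higher (median 0.78), 6 without mouse 0 or mouse 2. Hsp90b1, Hspa5 and Pdia4, which fold secreted proteins, rose by 0.93, 0.84 and 1.00 in 6 of 6 mice, and the serine hydroxymethyltransferase Shmt2 and asparagine synthetase Asns by 1.71 and 1.56, the latter pair without a call when mouse 0 or mouse 2 was left out (edgeR adjusted p up to 0.0749 and 0.0711). Cholesterol synthesis had 8 of 17 genes called higher, 5 without mouse 2, and 2 lower. Fdps, which makes farnesyl diphosphate, and Sqle, squalene epoxidase, rose by 1.01 and 1.11. Hmgcs1 and Sc5d of the same pathway fell by 0.75 (edgeR adjusted p up to 0.0931 without mouse 0, 2 or 8) and 0.94.

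Matrix genes changed in part. Of 18 collagen chains 6 were called higher by edgeR (median 0.64), 10 by DESeq2, and 12 were called by edgeR without mouse 4, the only mouse with a negative median (-0.48). Col12a1, a collagen that decorates fibrils in tendon and scar, was 66.2 to 94.8 CPM (median 83.2) in control and 380.5 to 2225 CPM (median 511) in tumor-associated pads. The top value belonged to mouse 0, and the other 5 mice still stood at least at 380.5 CPM. It rose by 3.01 (edgeR adjusted p = 0.0021, standard error 0.34). The main fibril chains Col1a1 and Col3a1, at 1.14 and 0.94, were not called (edgeR adjusted p = 0.0616 and 0.0928), nor was Col4a1 of basement membranes, at -0.34. Among 21 matrix proteases and crosslinking genes 9 were called higher and 2 lower. Timp1, an inhibitor of metalloproteinases, was 1.71 to 6.10 CPM (median 5.24) in control and 30.9 to 87.3 CPM (median 45.6) in tumor-associated IWAT, a rise of 3.51 (edgeR adjusted p = 0.00151, standard error 0.34). Its relative Timp4 moved the other way, from 98.2 to 230.3 CPM (median 127.5) to 7.13 to 76.8 CPM (median 44.2), a fall of 2.14 (edgeR adjusted p = 0.0262, up to 0.0668 without mouse 0, 2 or 8, standard error 0.56). Both genes separated the pads in all mice. Timp3 also fell, by 1.21 (up to 0.0852 without the same mice). Mmp13, a collagenase, rose by 3.17, the aggrecanase Adamts4 by 2.00 and the crosslinking enzymes Loxl2 and Loxl4 by 1.40 and 1.90. Timp1, Timp3 and Timp4 overlap Syn1, Syn3 and Syn2 on the other strand, and the strand setting of the counting is not given.

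Of 17 genes of activated fibroblasts 9 were called higher and 1 lower, with a median difference of -0.59 in mouse 4 and 0.70 to 1.89 in the others. Cthrc1, a secreted protein of wound fibroblasts, was 1.43 to 5.73 CPM (median 2.38) in control and 10.1 to 89.7 CPM (median 22.9) in tumor-associated pads, with the top value again in mouse 0. It rose by 3.15 (edgeR adjusted p = 0.00962, standard error 0.59). C1qtnf3, a secreted relative of adiponectin, had 16.2 to 88.7 CPM (median 22.5) beside the tumor and 1.39 to 7.25 CPM (median 2.07) in control pads, without overlap. Lrrc15 and Tnc, genes of scar-forming fibroblasts, rose by 3.00 and 2.18, and Has1, a hyaluronan synthase, by 3.08 (edgeR adjusted p = 0.0235, up to 0.0779 without mouse 2 or mouse 3). Acta2, smooth muscle actin, stood at -0.65 without a call. Mest, known to rise when fat expands, fell by 1.71 (edgeR adjusted p up to 0.0654 without mouse 0, 2 or 8). Of 14 adipose progenitor genes 2 were called higher and 1 lower, against 18.9% and 16.4% of all tested genes. Pdgfra, their common marker, stood at -0.03, Ly6a rose by 1.25, and Zfp423, which commits progenitors to fat, fell by 1.14 (edgeR adjusted p up to 0.126 without mouse 0, 2, 3 or 8).

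In the endothelium 5 of 20 genes were called lower, against 16.4% of all tested genes, and 1 higher (median -0.78), with 12 lower without mouse 1, 2 without mouse 4, 1 without mouse 3 and 0 without mouse 0, 2 or 8 or without mice 0 and 4. DESeq2 called 10 lower. Cldn5, Kdr and Pecam1, genes of the vessel lining, fell by 1.44, 0.96 and 0.84, with higher values beside the tumor in mouse 1 and edgeR adjusted p of up to 0.0898, 0.0961 and 0.119 with a mouse left out, whereas Esm1, a marker of sprouting tip cells, rose by 2.16 (edgeR adjusted p = 0.00255) in 6 of 6 mice. Of 9 genes of nerve 3 were called lower, against 16.4% of all tested genes. The count was 1 without mouse 3 or without mice 0 and 4 and 0 without mouse 0 or 2. The adhesion molecule Ncam1 was called higher (edgeR adjusted p = 0.0301, up to 0.0779 without mouse 0, 2, 3 or 8).

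Mammary epithelial genes were lower, by the list medians, in 5 of the 6 mice. Of 19 luminal genes 7 were called lower (median -1.60), 15 by DESeq2, and of 8 tested basal and milk genes 5 were called lower (median -1.79). Mouse 1 had medians of 0.39 and 0.21, mouse 4 of -3.80 and -4.17. The basal and milk genes summed to 437.6 to 673 CPM in control and 39.8 to 168 CPM in tumor-associated IWAT, and Wap, a milk protein, was at 0 in all 12 libraries. Such a sum weighs abundant genes most. Oxtr alone was 465 of 582.5 CPM in the control pad of mouse 8 and 130.5 of 437.6 CPM in that of mouse 1. In mouse 1 the sum was 168.3 CPM beside the tumor, although its list median was above 0. Luminal calls numbered 14 without mouse 1, 2 without mouse 3 and 1 without mouse 0, 2 or 8, and basal and milk calls 3 without mouse 3, 1 without mouse 2 or 8 and 0 without mouse 0. Oxtr, the oxytocin receptor of the contracting myoepithelium, was 130.5 to 465 CPM (median 247.5) in control and 19.05 to 89.7 CPM (median 65.4) in tumor-associated pads. It separated the groups in full, mouse 1 included. The fall was 2.37 (edgeR adjusted p = 0.0166, 0.0537 without mouse 0, standard error 0.53). Epcam, an adhesion molecule of epithelium, was 35.4 to 105.9 CPM (median 59.1) against 6.85 to 38.8 CPM (median 21.3) and fell by 1.73 (edgeR adjusted p = 0.0364, up to 0.108 without mouse 0, 2, 3 or 8, standard error 0.51), and mouse 1 went the other way. The junction gene Cdh1, the milk cell regulator Elf5, the basal keratin Krt5 and the casein Csn3 fell by 1.76, 1.82, 1.82 and 2.06, each with an edgeR adjusted p over the threshold when mouse 0, 2 or 8 was left out (up to 0.114, 0.0982, 0.101 and 0.0638) and all but Csn3 also without mouse 3. Krt8, which other simple epithelia and carcinoma cells also express, stood at -0.10, while its partner Krt18 was at -1.68, not called.

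Receptors for steroid and thyroid hormones were lower as well, 8 of 14 called by edgeR and 12 by DESeq2 (median -1.15). The progesterone receptor Pgr fell by 1.86, the mineralocorticoid receptor Nr3c2 by 1.59 and the glucocorticoid receptor Nr3c1 by 0.55. Each lost its call without mouse 0 or mouse 2, and Pgr and Nr3c2 also without mouse 8. The edgeR adjusted p rose to up to 0.0954 for Pgr, 0.097 for Nr3c2 and 0.0702 for Nr3c1. Esr1, at -1.14, was lower in 6 of 6 mice but did not pass (edgeR adjusted p = 0.0577). The count was 12 without mouse 1, 4 without mice 0 and 4, 2 without mouse 8, 1 without mouse 2 and 0 without mouse 0. Epithelium and adipocytes both express such receptors, and the sums of both marker lists moved with them as given above. Their part was not tested. Of 16 clock genes 7 were called lower, all 7 without overlap, and 1 higher. Among all tested genes 16.4% were called lower and 9.31% were lower without overlap. Lower calls of the list numbered 4 without mouse 0 or 8 and 3 without mouse 2. Per3, a repressor in the clock, was 47.4 to 88.7 CPM (median 67.0) in control and 19.9 to 36.4 CPM (median 28.0) in tumor-associated IWAT, with little spread between mice, and fell by 1.22 (edgeR adjusted p = 0.00669, standard error 0.21). Tef and Dbp, factors that carry the rhythm to other genes, fell by 0.92 and 1.06 (Dbp with an edgeR adjusted p of 0.0589 without mouse 2), and the repressor Bhlhe40 rose by 0.78 (0.0508 without mouse 0). Arntl, the activator of the clock, stood at 0.36. The hour at which the mice were killed was not given in the sources used here. Both pads of a mouse were harvested after its death, so each pair of pads shares that hour. Per3 overlaps Camta1 on the same strand.

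Proliferation genes rose in all mice. All 24 tested genes of the cell cycle and DNA replication were called higher, 22 without overlap, with a median of 2.31. The median difference was 3.37 in mouse 4, 3.25 in mouse 0 and 1.64 to 2.15 in the other 4. Between 21 and 24 were called with a mouse left out and 24 without mice 0 and 4. Ccnb1, cyclin B1, was 3.43 to 12.8 CPM (median 4.83) in control and 19.4 to 131 CPM (median 51.2) in tumor-associated pads, and Top2a, which untangles chromosomes, 33.4 to 95.7 CPM (median 43.4) and 156 to 811 CPM (median 313). In both, mouse 4 was highest and mouse 1 lowest beside the tumor, and mouse 2 had the highest control pad. The log2 fold changes were 3.24 and 2.78 (standard errors 0.37 and 0.35, edgeR adjusted p = 0.00235 and 0.00276). Mki67, Mcm2 and Pcna rose by 1.99, 2.03 and 1.06. E2F factors drive many of these genes, and TTTNNCGC, a form of their motif, stood on either strand in 6 of 21 members with a promoter (28.6%), against 9.62% of all tested genes and 5.17% of all promoters. The 200 bases before the start of 2 members show it in capitals. These members were picked in the same way, in order of p, for holding the motif in this window.
Cdk1, chr10:69352913-69353112, minus strand: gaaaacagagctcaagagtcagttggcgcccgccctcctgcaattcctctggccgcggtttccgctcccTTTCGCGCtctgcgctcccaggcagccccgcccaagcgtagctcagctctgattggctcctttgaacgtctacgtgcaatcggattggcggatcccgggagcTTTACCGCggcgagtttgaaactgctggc
Mcm6, chr1:128359706-128359905, minus strand: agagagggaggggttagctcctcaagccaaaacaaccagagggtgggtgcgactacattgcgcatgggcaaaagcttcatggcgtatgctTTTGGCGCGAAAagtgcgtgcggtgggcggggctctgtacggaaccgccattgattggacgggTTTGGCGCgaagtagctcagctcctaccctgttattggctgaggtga

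Cdk1, the kinase that starts mitosis, rose by 2.74 and Mcm6, a subunit of the replicative helicase, by 1.63. Of 20 genes for ribosome building and nucleotide synthesis 17 were called higher (median 1.02), but the per-mouse median ran from 0.11 in mouse 1 to 2.34 in mouse 4, and 6 were called without mouse 8, 3 without mouse 0 or mouse 2 and 10 without mice 0 and 4. Odc1, ornithine decarboxylase, rose by 1.72, and the nucleolar genes Nop58 and Ncl by 1.34 and 1.04. Nop58 and Ncl were not called without mouse 0 or 2, and Ncl also not without mouse 3 or 8 (edgeR adjusted p up to 0.0672 and 0.116). Small nucleolar RNA genes lie within Nop58 and Ncl on the same strand. Among 20 lysosomal genes 10 were called higher, 6 without mouse 3, among them Gla, alpha-galactosidase, at 1.33 and Grn, progranulin, at 0.99.

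Lymphocyte genes showed little that was common to the mice. Of 18 tested T and NK cell genes 1 was called higher, the cytotoxic protease Gzmb at 2.13, and 1 lower, the signaling chain Cd247 at -1.66. Without mice 1 and 3, whose control pads held the most lymphocyte counts, 6 were called higher and 1 lower, and without mouse 1 alone 4 were called higher. Cd79b, a chain of the B cell receptor, was 115.4 and 115.2 CPM in the control pads of mice 1 and 3 and 1.29 to 2.92 CPM in those of the other 4. Beside the tumor it was 27.8 CPM in mouse 3 and 1.15 to 3.01 CPM in the others. Its log2 fold change of -1.72 was not called (edgeR adjusted p = 0.112), and the groups overlapped. Ebf1, which adipocytes and their progenitors also express, fell by 1.33 (edgeR adjusted p = 0.0268, up to 0.0876 without mouse 0, 2 or 8). Of 14 neutrophil genes 3 passed the filter, and Csf3r, the G-CSF receptor, rose by 1.59.

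Among genes called higher, raised in 6 of 6 mice and with at least 10 counts in each tumor-associated library, the 10 with the largest rise were Slfn4, Tex19.1, 4930550L24Rik, Dppa4, Fpr1, G730013B05Rik, Tex11, Rhox5, Steap1 and Gm364. Slfn4, an interferon-induced gene of myeloid cells on chromosome 11, was 2.32 to 12.6 CPM (median 3.33) in control and 53.8 to 248.8 CPM (median 164) in tumor-associated pads. The groups lay far apart, with mouse 3 lowest beside the tumor. It led all tested genes at 5.06 (edgeR adjusted p = 0.00091, standard error 0.41). Fpr1, the receptor for bacterial formyl peptides on phagocytes, rose by 3.87 and Steap1, a metalloreductase, by 3.78. In contrast, Tex19.1, Dppa4, Tex11 and Rhox5 are genes of germ cells and early embryos. Tex19.1 was 0.28 to 5.85 CPM (median 0.75) in control and 2.75 to 90.6 CPM (median 26.4) in tumor-associated IWAT, and Rhox5 0.77 to 13.1 CPM (median 1.81) and 6.28 to 169 CPM (median 51.3). Both overlapped between the pads, since the control pad of mouse 2 exceeded the tumor-associated pad of mouse 1. Their log2 fold changes were 4.05 and 3.81 (standard errors 0.74 and 0.82, edgeR adjusted p = 0.00873 and 0.0151; without mouse 0 0.0515 for Rhox5, 0.0529 for Tex11 and 0.0689 for Gm364).

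Summed with 4930550L24Rik and Gm364, these genes came to 2.01 to 41.95 CPM in control pads. Beside the tumor they stood at 20.8 CPM in mouse 1, 51.8 in mouse 8, 93.4 in mouse 3, 236.5 in mouse 2, 240.3 in mouse 0 and 556 in mouse 4. The mice at the top of this order, 4 and 0, were also those with the largest falls of adipocyte and epithelial genes and the largest rises of cell cycle genes, and mouse 1 was at the other end in each of these. The mice between did not keep the order. Mouse 2, with a sum near that of mouse 0, had an adipocyte median of -1.32 against -2.77. Its cell cycle median of 1.73 was below the 2.15 of mouse 8, which had a sum of 51.8 CPM. The genes were picked for their rise in the same 6 mice, and whether cells of the injected line were present in the tissue was not tested.

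The 10 largest falls, with at least 10 counts in each control library, were those of Mrgprg, Inmt, Myom3, Gabrr2, Prkag3, Frmpd4, Slc5a7, Bend5, Plch2 and Bdnf. Inmt, a methyltransferase of tryptamine, was 34.6 to 75.7 CPM (median 39.3) in control and 0.55 to 16.5 CPM (median 3.13) in tumor-associated pads, and fell by 3.35 (edgeR adjusted p = 0.0119, standard error 0.67). Mouse 1 kept the most and mouse 4 the least. Myom3, a sarcomere protein, was 8.98 to 15.7 CPM (median 10.5) against 0.55 to 3.53 CPM (median 1.55), a fall of 2.84 (edgeR adjusted p = 0.00274, standard error 0.35). The control pad of mouse 1, where 16 muscle genes summed to 3140 CPM, had 10.7 CPM of Myom3. All 6 tested muscle genes had log2 fold changes between -2.84 and -1.40, and 2 were called lower, Myom3 and the myosin light chain Myl1 at -1.79 (edgeR adjusted p = 0.0165, lower in 6 of 6 mice), with 1 call without mouse 0. The actin Acta1 and the myosin Myh1, at -1.79 and -1.89, were not called. The median difference of the muscle list was -4.17 in mouse 1, 0.08 in mouse 8 and -3.19 to -0.74 in the other mice. In mouse 8 the 16 muscle genes summed to 347.2 CPM beside the tumor and 109.3 CPM in control. Prkag3, a subunit of the energy sensor AMPK, fell by 2.54, Slc5a7, a choline carrier, by 2.53 and Bdnf, a neurotrophin, by 2.397. Prkag3 and Bdnf kept their calls with each mouse left out, Slc5a7 with all but mouse 0 (edgeR adjusted p = 0.0537). Gabrr2, Frmpd4 and Plch2 lost theirs without mouse 0, 2 or 8 (up to 0.0642, 0.0742 and 0.102). Frmpd4 also lost its call without mouse 3 or 4, and Plch2 without mouse 3.

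The tumor change of obese mice was set beside that of lean mice in 1 fit to all 22 libraries, and the difference itself was tested. It was called for 604 of 14458 genes (4.18%), 314 of them positive. This count was 32 without obese mouse 0, 99 without mouse 2, 109 without mouse 3, 1046 without mouse 4 and 3231 without mouse 1, while without the mouse block edgeR called 711 and DESeq2 called 2318. Of the 604 calls 28 were among the genes described, and of these 7 remained without obese mouse 0, 10 without mouse 2 and 10 without mouse 3. The difference was called, and positive, for 10 of 17 glycolysis and 8 of 17 cholesterol synthesis genes. Pkm differed by 1.48, Gapdh by 1.87 and Pgk1 by 1.70 (edgeR adjusted p = 0.00801, 0.0213 and 0.0238), with lean log2 fold changes of -0.44, -0.40 and -0.30. Fdps and Sqle differed by 1.26 and 1.53 (edgeR adjusted p = 0.0138 and 0.0238). Of the 25 interferon response genes 0 were called as different by edgeR or by DESeq2 without the block and 0 had an unadjusted p under the threshold, and their median log2 fold change in lean mice was 1.57. Of the 20 adipocyte genes edgeR and DESeq2 without the block called 0, while 7 had an unadjusted edgeR p under the threshold. Their median was -0.57 in lean mice in this fit, and -1.55 in the fit to the obese pads alone. A p that misses the threshold does not show that lean and obese mice changed alike. The study reports larger tumors in HFD-fed than in chow-fed mice. Diet and tumor size therefore cannot be told apart in the obese minus lean difference. Among macrophage markers Ccr2 differed by 1.91 (edgeR adjusted p = 0.0202).

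**Figure D5:**
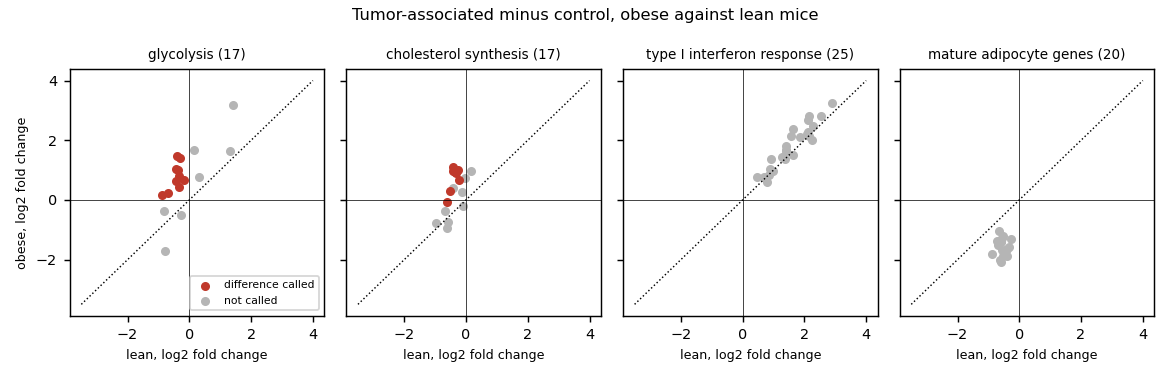
Log2 fold change of tumor-associated minus control IWAT in lean (x axis) and obese mice (y axis) for the tested members of 4 gene lists, from 1 fit to all 22 libraries; the dotted line marks equal change. Red points, 10 of glycolysis and 8 of cholesterol synthesis, are genes whose difference was called, and neither the interferon nor the adipocyte list held one.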

How the data were processed

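Total RNA of the pads was depleted of ribosomal RNA and sequenced. The authors trimmed the reads, aligned them to mm10 with STAR 2.4.0f and counted them per gene symbol with HTSeq, and the counts as deposited are raw. The annotation and the strand setting of the counting are not given in the sources used here. In the 12 obese libraries 6099692 to 7768729 reads fell on genes, while 57.0 to 63.6% of the reads in each table column were not assigned to a gene (38.5 to 47.2% fell on no feature) and stayed out of library sizes and tests.

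Genes were filtered with edgeR's filterByExpr and tested with its quasi-likelihood test (edgeR 4.0.16, limma 3.58.1, R 4.3.3) after TMM scaling, with Benjamini-Hochberg adjustment over all tested genes. The mouse was a block because both pads came from the same animal. Deviations of the pads of 1 mouse from their group means had a median correlation of 0.154 (-0.089 to 0.647). The difference from lean mice was an interaction term in a fit to all 22 libraries with the mouse as a block. Libraries of a group differed by more than counting noise (chi-square per degree of freedom at least 9.51). The script was tested on simulated data. Alternatives were DESeq2 1.42.0, no block, other scaling and filters, and leaving out mice.

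The members and the 40 gene lists were chosen with earlier results of these data known. The rule for named genes took the 10 largest rises and falls with at least 10 counts in each library of the higher group, up to 4 members of each list called in its main direction and up to 2 in the other. Other genes named, such as Adipoq, Lep, Pparg, Gapdh, Isg15, Top2a and all genes not called, were chosen from the lists after their values were seen. Promoter sequences came from RefSeq on GRCm38.p6, and gene positions and overlaps from the GENCODE annotation of the same assembly. Of 250 genes described, 47 overlap another gene on their own strand and 88 on the other. Reads of near-identical copies, such as Oas1 and Slfn genes, may be split or left unassigned, so such genes may be undercounted. Some genes that the rule or the lists hold are not reported here. Tissue pieces were labelled by animal, and p-values measure the spread between these animals.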

Additional observations from a re-analysis of the deposited data

Results flagged for a closer look

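Among 78 groups of 6 pads (39 genes in both pads), 12 held a library far from the others by Dixon's test at the 95% level. Chance gives this in about 1 of 20 groups if they are independent and normally distributed. Here the genes shared the same libraries, the CPM values were not put on a log scale and each flag was a high value. The count is therefore not comparable with that rate. The control pad of mouse 2 gave 5 of them, with 7.25 CPM of C1qtnf3, 13.1 CPM of Rhox5, 19.2 CPM of Slc16a3, 12.6 CPM of Slfn4 and 46.7 CPM of Spp1, each the highest control value. The tumor-associated pad of mouse 0 gave 3, with 88.7 CPM of C1qtnf3, 2225 CPM of Col12a1 and 89.7 CPM of Cthrc1. The others were Cxcl10 at 69.0 CPM in the tumor-associated pad of mouse 4, Inmt at 75.7 CPM in its control pad, Chi3l3 at 5.77 CPM in the control pad of mouse 3 and Cd79b at 27.8 CPM in its tumor-associated pad.

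The tumor change differed between obese and lean mice for 28 of the genes described, by the interaction term of edgeR at an adjusted p under 0.05, with 21 differences positive. For glycolysis the obese minus lean difference in log2 change was 1.48 for Pkm, 1.04 for Gpi1, 1.87 for Gapdh, 1.12 for Ldha and 1.70 for Pgk1. For sterol and lipid genes it was 1.26 for Fdps, 1.53 for Sqle, 0.89 for Cyp51, 1.37 for Sc4mol, 1.23 for Acly, 1.95 for Elovl6, 0.89 for Scd2, 1.14 for Plin2 and 0.90 for Gyk. It was 1.91 for Ccr2, 1.07 for Gla, 1.802 for Col8a1, 1.85 for Asns, 0.68 for Hif1a, 0.78 for Bhlhe40 and 2.02 for Ccnb1. Negative differences were -1.99 for Myom3, -1.05 for Apoe, -2.66 for Slc5a7, -2.31 for Bend5, -2.18 for Bdnf, -1.24 for Pecam1 and -2.11 for Csn3. Of these 28, 7 were called without obese mouse 0, 10 without mouse 2, 10 without mouse 3, 24 without mouse 8, 18 by edgeR without the mouse block and 22 by DESeq2 without it.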

How the results depend on the processing

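Of the 203 genes called among those described, 109 were called with each single mouse left out and 197 under each of the other planned settings. Calls were lost for 90 genes without mouse 0, 85 without mouse 2, 66 without mouse 8, 30 without mouse 3, 8 without mouse 4 and 0 without mouse 1. The number of called genes was 4869, and 1570 to 5745 with a mouse left out (higher 1159 to 2912, lower 411 to 2833). Without the replicate block 6057 genes were called in the 12 libraries, so the pairing of pads changed no count by over 1.5 times there, but over all 22 libraries 7882 were called without the block (4003 lower) and 7680 with it (3990 lower). Fewer libraries enter each fit that leaves out a mouse, and the cause of the different effect of single mice was not tested. Leaving out mice 1 and 3, or 0 and 4, was chosen after seeing the data: 197 and 167 of the 203 calls were kept, and 2932 genes were called without mice 0 and 4 (1103 lower). The obese minus lean difference was called for 604 genes, 711 without the block, 2318 by DESeq2 without the block, and 32 to 3231 with an obese mouse left out. Some uncalled log2 fold changes turned sign. With a mouse left out Gpnmb ranged from -0.11 to 0.36, Cd3e from -1.13 to 0.30, Pdgfra from -0.12 to 0.033 and Krt8 from -0.26 to 0.055. Without mice 1 and 3 Gpnmb stood at -0.29 and Acly at -0.00367. Without mice 0 and 4 the values were 0.11 for Pdgfra, 0.085 for Krt8, 0.0059 for Mertk, 0.10 for Retnla, 0.056 for H2-K1 and 0.085 for Col4a1.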
